A study of Mus musculus with 6 samples.

Results

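The genes of arginine metabolism were followed in RNA-seq libraries of tumour-associated macrophages (TAM) from mouse liver tumours, namely hepatocellular carcinoma. The 10 genes were taken by symbol from the 55291 rows of the expression table. They included the arginases Arg1 and Arg2, the inducible nitric oxide synthase Nos2 and the cationic amino acid transporters Slc7a1 and Slc7a2. The others were the arginine-making enzymes Ass1 and Asl, the ornithine-using enzymes Odc1 and Oat, and the spermidine synthase Srm. All 10 were found, each in 1 row, and all 10 passed the filter on low values. The tested libraries were 3 labelled TREM2+ TAM, after the surface receptor TREM2 of myeloid cells, which binds lipids, and they were compared with 3 labelled TREM2- TAM. Both groups were described as macrophages of liver tumours, with polyadenylated RNA sequenced. Strain, age, the way the tumours arose and the way the cells were separated are not given here by any source. The comparison asks how transcripts of TREM2+ macrophages of the tumour differ from those of TREM2- macrophages.

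Arginine enters macrophages through the cationic amino acid transporters and is then split between competing enzymes. Arginase hydrolyses it to ornithine and urea, while inducible nitric oxide synthase oxidises it to nitric oxide and citrulline. Ornithine feeds the polyamines through ornithine decarboxylase, or proline and glutamate through ornithine aminotransferase, and citrulline can be turned back into arginine by argininosuccinate synthase and lyase. In mouse macrophages Arg1 is a textbook gene of the response to IL-4 and IL-13 and Nos2 of the response to interferon gamma and microbial products, and in the liver Arg1 is also the urea cycle enzyme of hepatocytes.

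The libraries held between 11523145 and 19976263 reads, as recovered from the table by exon length. Levels are given as TPM, a length-scaled share of transcripts, after each library was rescaled to a total of 1000000. Composition varied among libraries of both groups: mitochondrially encoded transcripts took 3.78% to 10.02% of the TPM in TREM2+ libraries and 2.42% to 12.3% in TREM2- libraries. The repeat-rich transcript Gm10800 took 0.575% to 13.7% in TREM2+ libraries and 0.344% to 19.2% in TREM2- libraries, and was highest in replicate 3 of both groups. Trem2 itself, which checks the labels, stood at 37.0 ± 5.51 TPM in TREM2+ libraries and 19.5 ± 2.28 TPM in TREM2- libraries (SD, n = 3 each). The Trem2 groups did not overlap, but its log2 fold change of 0.89 ± 0.22 (SE) had an adjusted p of 0.0855 in limma and did not pass the threshold of 0.05.

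Arg1, Nos2 and Slc7a2 rose in TREM2+ macrophages, and none of the 10 genes passed the test as lower. Arg1, the cytosolic arginase, was about 9.1 times as abundant as in TREM2- macrophages, Nos2 5.81 times and the transporter Slc7a2 4.22 times, as ratios of mean TPM. The other transporter Slc7a1, the arginine-making enzymes, the ornithine-using enzymes and Srm did not pass the test. Neither did the mitochondrial arginase Arg2, although its groups did not overlap. In limma, 3 of 10 genes passed an adjusted p under 0.05 as higher, where 2.05% of the 13788 genes tested did. None passed as lower, where 0.37% of all genes did. At an unadjusted p under 0.05 in limma, 5 of the 10 were higher and 0 lower, against 1027 and 736 of the 13788 genes tested. Limma's voom on recovered reads called 3 of the 10 higher and 0 lower, against 445 and 173 of 13354 genes. These totals are also the background for the list counts below. In 4 of the 10 every TREM2+ library lay above every TREM2- library, where 9.07% of all genes did, and in 0 of the 10 every TREM2+ library lay below, where 7.62% of all genes did. The median log2 fold change was 0.60 over the 10 genes and -0.09 over all genes tested. In bulk RNA, a difference in the number of cells that carry a transcript and a difference in transcript per cell cannot be told apart.

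**Figure D1:**
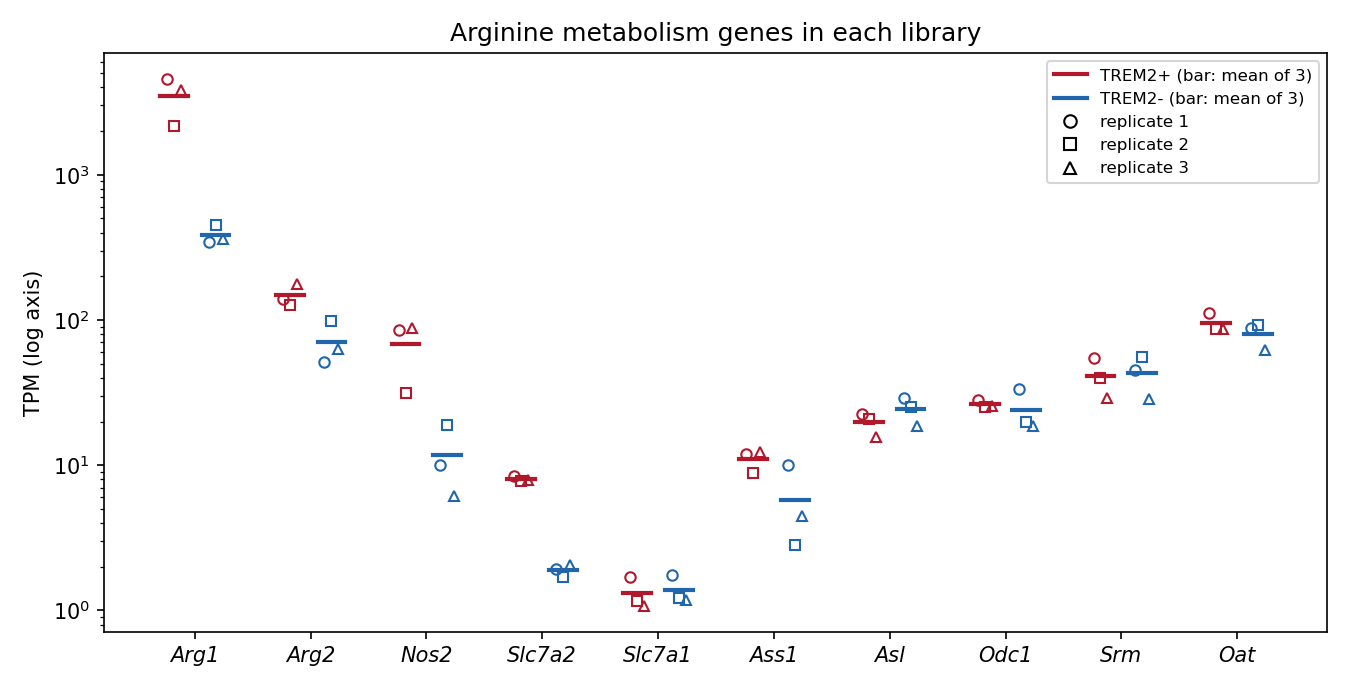
Level of each of the 10 genes in each of the 6 libraries, in TPM on a log axis, with TREM2+ libraries left of TREM2- libraries, points for libraries and bars for group means. The 3 TREM2+ points of Arg1, Arg2, Nos2 and Slc7a2 lie above the 3 TREM2- points, and the groups of the other 6 genes overlap.

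Arg1 (ENSMUSG00000019987.9; mm10 chromosome 10, 24915221 to 24927484, minus strand) was the most abundant of the 10 genes in every library. Its level was 4539.7, 2176 and 3805 TPM in TREM2+ replicates 1, 2 and 3, against 346, 449 and 362 TPM in TREM2- replicates 1, 2 and 3. Every TREM2+ library was at least several-fold above every TREM2- library, and the TREM2- libraries lay close together while the TREM2+ libraries spread more widely. The log2 fold change was 3.13 ± 0.30 (SE; 95% confidence interval 2.44 to 3.81), with an adjusted p of 0.00373 in limma. Only 6 of the 13788 genes tested had a larger log2 fold change. Between 34559 and 77969 reads in TREM2+ libraries and between 5186 and 7458 in TREM2- libraries stood behind these values, so counting error was small beside the spread between libraries. Among all rows of the table, Arg1 ranked 38th by mean level in TREM2+ libraries and 281st in TREM2- libraries.

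Arg2 (ENSMUSG00000021125.6; chromosome 12, 79130777 to 79156301, plus strand) encodes the mitochondrial arginase. It stood at 139, 128 and 176 TPM in TREM2+ replicates 1, 2 and 3, against 51.2, 98.0 and 63.1 TPM in TREM2- replicates 1, 2 and 3. The groups did not overlap, and the nearest pair was replicate 2 of both groups. The log2 fold change of 1.09 ± 0.28 (SE; 95% confidence interval 0.46 to 1.72) did not pass the threshold, with an adjusted p of 0.0974 in limma. Without TREM2- replicate 2 it was 1.35, with an adjusted p of 0.0241 in limma. The gene lies against Vti1b, a vesicle transport gene on the opposite strand, with 285 shared exon bases or 20% of the exon bases of Arg2, and against Gm48780, with 116 bases. The strand setting of the counting is not stated in any label, so reads of these stretches cannot be told apart. Vti1b stood at 181 ± 4.18 TPM in TREM2+ libraries and 158 ± 21.02 TPM in TREM2- libraries (SD, n = 3 each), and its part in the level of Arg2 was not tested.

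Nos2 (ENSMUSG00000020826.8; chromosome 11, 78920787 to 78960254, plus strand) encodes the inducible nitric oxide synthase. It stood at 85.4, 31.3 and 87.6 TPM in TREM2+ replicates 1, 2 and 3, against 10.1, 19.0 and 6.13 TPM in TREM2- replicates 1, 2 and 3. The groups did not overlap, and the libraries numbered 2 came closer to each other than any other pair across the groups. The log2 fold change was 2.43 ± 0.47 (SE; 95% confidence interval 1.36 to 3.50), with an adjusted p of 0.0333 in limma, and 36 genes had a larger one. Reads numbered 991 to 2923 in TREM2+ libraries and 175 to 628 in TREM2- libraries. The call was lost without TREM2+ replicate 3 (log2 fold change 2.18, adjusted p 0.0896 in limma), without TREM2- replicate 1 (2.40, adjusted p 0.115) and without TREM2- replicate 3 (2.08, adjusted p 0.128). It was also lost under median-of-ratios and quantile scaling, with no filter on low values and without the repeat family, with adjusted p between 0.0669 and 0.173 in limma, although the log2 fold change stayed between 2.37 and 2.51. Without both libraries numbered 1, a setting chosen after seeing the data, it was 2.17, with an adjusted p of 0.138 in limma. With the replicate number as a block the Nos2 call was lost too, with an adjusted p of 0.157 in limma.

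Slc7a2 (ENSMUSG00000031596.15; chromosome 8, 40862396 to 40922308, plus strand) encodes the cationic amino acid transporter CAT2, which carries arginine, lysine and ornithine. It stood at 8.38, 7.79 and 7.91 TPM in TREM2+ replicates 1, 2 and 3, against 1.94, 1.70 and 2.06 TPM in TREM2- replicates 1, 2 and 3. The libraries of each group lay close together and the groups were far apart. The log2 fold change was 1.64 ± 0.22 (SE; 95% confidence interval 1.15 to 2.13), with an adjusted p of 0.00747 in limma. At such low levels the added 1 TPM understates the change: voom on recovered reads gave a log2 fold change of 2.03. Reads numbered 464 to 590 in TREM2+ libraries and 116 to 158 in TREM2- libraries. The opposite-strand gene Gm26584, which had no row under that symbol, covers 635 exon bases or 6.95% of those of Slc7a2.

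Slc7a1 (ENSMUSG00000041313.14; chromosome 5, 148327410 to 148399904, minus strand) encodes CAT1, the broadly expressed transporter of the same family. It was the lowest of the 10 genes in every library, at 1.71, 1.16 and 1.08 TPM in TREM2+ replicates 1, 2 and 3 and 1.75, 1.22 and 1.19 TPM in TREM2- replicates 1, 2 and 3. The groups overlapped almost wholly. The log2 fold change was -0.05 ± 0.26 (SE), with an adjusted p of 0.972 in limma, and its 95% confidence interval ran from -0.63 to 0.54. Reads numbered 80 to 152 in TREM2+ libraries and 88 to 180 in TREM2- libraries.

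**Figure D2:**
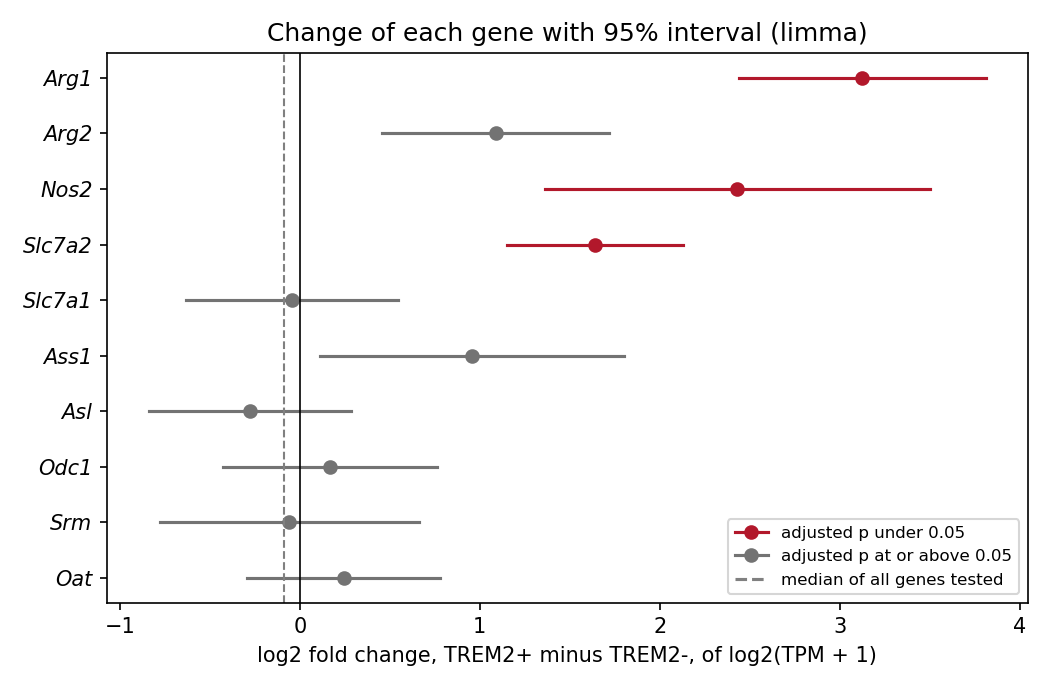
Log2 fold change of each of the 10 genes, TREM2+ over TREM2-, on the log2(TPM + 1) scale, with bars for the 95% confidence interval of the limma fit and a dashed line at the median of all genes tested, -0.09. Arg1 at 3.13, Nos2 at 2.43 and Slc7a2 at 1.64 passed an adjusted p under 0.05, and the intervals of Slc7a1, Asl, Odc1, Oat and Srm span 0.

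The enzymes that make arginine from citrulline did not pass the test, and their estimates pointed in opposite directions. Ass1 (ENSMUSG00000076441.9; chromosome 2, 31470207 to 31520672, plus strand), argininosuccinate synthase, stood at 11.9, 8.89 and 12.3 TPM in TREM2+ replicates 1, 2 and 3, against 9.99, 2.83 and 4.51 TPM in TREM2- replicates 1, 2 and 3. The groups overlapped because of TREM2- replicate 1, which lay above TREM2+ replicate 2. Its log2 fold change was 0.96 ± 0.37 (SE; 95% confidence interval 0.11 to 1.80), with an adjusted p of 0.309 in limma. Of its stretches of 50 bases, 38.6% also occur in the pseudogene Gm5424, which held at most 0.226 TPM in any library, so reads could have been split or dropped by the counting.

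Asl (ENSMUSG00000025533.15; chromosome 5, 130011258 to 130029247, minus strand), argininosuccinate lyase, stood at 22.5, 20.8 and 15.8 TPM in TREM2+ replicates 1, 2 and 3, against 28.8, 25.2 and 18.6 TPM in TREM2- replicates 1, 2 and 3. The groups overlapped. For Asl the log2 fold change was -0.28 ± 0.25 (SE; 95% confidence interval -0.84 to 0.28), with an adjusted p of 0.760 in limma.

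The ornithine-using enzymes Odc1 and Oat and the spermidine synthase Srm were expressed in every library, and none passed the test. Odc1 (ENSMUSG00000011179.8; chromosome 12, 17544794 to 17551505, plus strand), ornithine decarboxylase, the first step of polyamine synthesis, stood at 28.1, 25.0 and 25.4 TPM in TREM2+ replicates 1, 2 and 3, against 33.7, 19.9 and 18.5 TPM in TREM2- replicates 1, 2 and 3. The TREM2+ libraries lay close together and inside the range of the TREM2- libraries. Its log2 fold change was 0.17 ± 0.26 (SE; 95% confidence interval -0.43 to 0.76), with an adjusted p of 0.873 in limma. Processed copies such as Gm7993 and Gm17709 share 24.3% of its stretches of 50 bases, so its level is uncertain.

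Srm (ENSMUSG00000006442.10; chromosome 4, 148591503 to 148594993, plus strand), spermidine synthase, stood at 54.7, 40.0 and 29.0 TPM in TREM2+ replicates 1, 2 and 3, against 45.1, 55.9 and 28.5 TPM in TREM2- replicates 1, 2 and 3. The lowest library of both groups was replicate 3, and the groups overlapped. Its log2 fold change was -0.06 ± 0.32 (SE; 95% confidence interval -0.78 to 0.66), with an adjusted p of 0.971 in limma.

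Oat (ENSMUSG00000030934.9; chromosome 7, 132557478 to 132576398, minus strand), the mitochondrial ornithine aminotransferase, was more abundant than Odc1 and Srm. It stood at 111, 86.2 and 87.3 TPM in TREM2+ replicates 1, 2 and 3, against 87.8, 92.2 and 62.0 TPM in TREM2- replicates 1, 2 and 3. The groups overlapped. Its log2 fold change was 0.24 ± 0.24 (SE; 95% confidence interval -0.29 to 0.78), with an adjusted p of 0.783 in limma. Slc7a1, Asl, Odc1, Oat and Srm did not pass with 3 libraries a group. Their intervals span 0 and do not give the smallest change that the test could have called.

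Arg1, Odc1, Ass1, Slc7a2 and Slc7a1 held the same place in the order of mean levels in both groups, while Arg2, Oat, Nos2, Srm and Asl changed places. In TREM2+ libraries the mean TPM ran from Arg1 through Arg2, Oat, Nos2, Srm, Odc1, Asl, Ass1 and Slc7a2 down to Slc7a1. Of neighbours in that order, the ranges of Oat and Nos2 and those of Nos2 and Srm overlapped, while the others did not. In TREM2- libraries the order was Arg1, Oat, Arg2, Srm, Asl, Odc1, Nos2, Ass1, Slc7a2 and Slc7a1, and only Arg1 against Oat and Ass1 against Slc7a2 did not overlap. Nos2 was thus the fourth of the 10 in TREM2+ libraries and the seventh in TREM2- libraries. Arg1 made up 86.2% to 90.7% of the summed TPM of the 10 genes in TREM2+ libraries and 56.1% to 63.9% in TREM2- libraries. The 10 genes together took 0.252% to 0.50% of all TPM in TREM2+ libraries and 0.0566% to 0.0765% in TREM2- libraries.

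Balances within the pathway were compared as log2 ratios of TPM + 1 for 3 pairs of genes, each with a two-sided exact permutation test over the 6 libraries, whose 20 arrangements allow no p below 0.1. The log2 ratio of Arg1 to Arg2 was 5.02, 4.08 and 4.43 in TREM2+ replicates 1, 2 and 3, against 2.73, 2.18 and 2.5 in TREM2- replicates 1, 2 and 3. The groups did not overlap, with a difference of 2.04 (exact permutation p = 0.1). Transcripts of Arg1 thus outnumbered those of Arg2 in each of the 6 libraries. The ratio was larger in TREM2+ libraries, but the test could not have reached a p under 0.05.

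The log2 ratio of Slc7a2 to Slc7a1 was 1.79, 2.03 and 2.10 in TREM2+ replicates 1, 2 and 3, against 0.10, 0.28 and 0.48 in TREM2- replicates 1, 2 and 3. The groups again did not overlap, with a difference of 1.68 (exact permutation p = 0.1). The log2 ratio of Arg1 to Nos2 was 5.72, 6.07 and 5.42 in TREM2+ replicates 1, 2 and 3, against 4.97, 4.49 and 5.67 in TREM2- replicates 1, 2 and 3. Here the groups overlapped, since TREM2- replicate 3 lay above TREM2+ replicate 3, and the difference of 0.69 had an exact permutation p of 0.2. Arg1 exceeded Nos2 in each of the 6 libraries, by 43.4 to 69.5 times in TREM2+ libraries and 23.7 to 59.0 times in TREM2- libraries, as ratios of TPM. Adjusted over the 3 ratios by Benjamini-Hochberg, the exact permutation p was 0.15 for Arg1 to Arg2 and for Slc7a2 to Slc7a1, and 0.2 for Arg1 to Nos2.

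**Figure D3:**
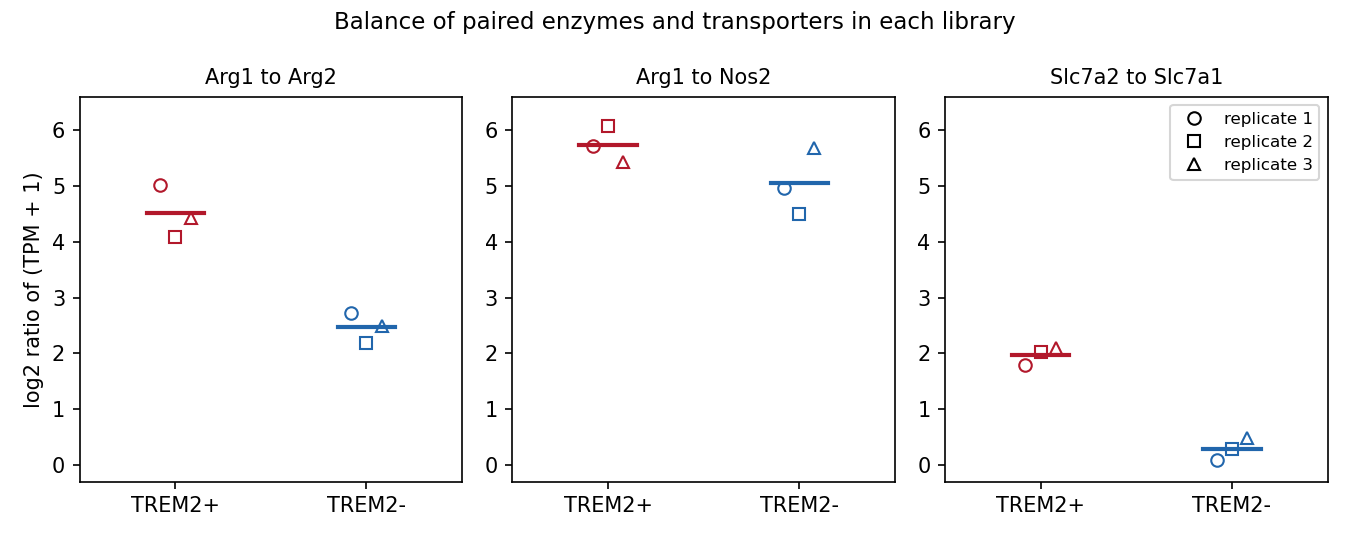
Log2 ratio of TPM + 1 for the 3 pairs of genes in each library, with TREM2+ libraries left of TREM2- libraries and bars for group means. The groups stand apart for Arg1 to Arg2 and for Slc7a2 to Slc7a1, and overlap for Arg1 to Nos2.

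The rest of the pathway was read from lists of genes, and of these a single gene passed the test. Of 7 other transporters of arginine, ornithine and citrulline tested, 0 passed in either direction in limma, with a median log2 fold change of -0.25, against -0.09 over all genes. Before adjustment, 2 were higher and 1 was lower at p under 0.05 in limma, and voom called 1 higher. Slc3a2, the heavy chain that carries several amino acid transporters to the cell surface, was the most abundant of them, at 182 ± 25.5 TPM in TREM2+ libraries and 109 ± 17.2 TPM in TREM2- libraries (SD, n = 3 each), with a log2 fold change of 0.74 and an adjusted p of 0.163 in limma. Slc7a6, the light chain y+LAT2, had a log2 fold change of -0.62 with an adjusted p of 0.370 in limma. The urea cycle enzymes Cps1 and Nags stayed below the filter, Cps1 with at most 0.828 TPM in any library, and Otc did not pass (log2 fold change -0.45, adjusted p 0.80 in limma).

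Of 10 genes of nitric oxide synthesis, its cofactor tetrahydrobiopterin and the clearance of its inhibitors, 0 passed in limma, with a median log2 fold change of 0.04. Without adjustment 1 was higher and 0 were lower at p under 0.05 in limma, and voom called 1 higher. Ddah2, of the family that degrades methylated arginines, stood at 9.85, 11.2 and 8.12 TPM in TREM2+ replicates 1, 2 and 3, against 5.28, 3.37 and 2.83 TPM in TREM2- replicates 1, 2 and 3. Its groups did not overlap, with a log2 fold change of 1.17 ± 0.26 (SE) and an adjusted p of 0.0607 in limma. The other nitric oxide synthases stayed below the filter: Nos3, the endothelial form, held 0.829 to 1.60 TPM in TREM2+ libraries and 0.227 to 0.570 TPM in TREM2- libraries, and Nos1, the neuronal form, at most 0.154 TPM in any library.

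Of 17 further genes of polyamine synthesis, turnover and transport, 0 passed in limma, with a median log2 fold change of 0.07. Unadjusted, 3 were higher and 0 lower at p under 0.05 in limma, and voom called 0. Those 3 were Smox, spermine oxidase, with a log2 fold change of 1.19 and an adjusted p of 0.122, Paox, acetylpolyamine oxidase, with 0.87 and 0.193, and Sat2 with 0.65 and 0.301, all in limma. Sat1, the rate-limiting enzyme of polyamine catabolism, was the most abundant of the list, at 1185 ± 177 TPM in TREM2+ libraries and 1092 ± 158 TPM in TREM2- libraries (SD, n = 3 each). Its log2 fold change of 0.12 had an adjusted p of 0.907 in limma. Of 6 genes from ornithine to proline and glutamate 0 passed in limma, with a median log2 fold change of -0.14, and neither the unadjusted p under 0.05 nor voom called any (0 of each). Pycr3 had no row under that symbol in the expression table and could not be tested.

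Arginine is also the substrate of Gatm, the mitochondrial amidinotransferase that starts creatine synthesis. Gatm stood at 165, 186 and 191 TPM in TREM2+ replicates 1, 2 and 3, against 50.3, 55.4 and 71.5 TPM in TREM2- replicates 1, 2 and 3. The groups did not overlap and were well apart. Its log2 fold change was 1.61 ± 0.22 (SE), with an adjusted p of 0.00789 in limma, and it passed in each of the 6 leave-one-out fits, which drop 1 library each. Gamt, the methyltransferase of the second step, had a log2 fold change of -0.53 with an adjusted p of 0.541 in limma.

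Genes known to act on Arg1 and Nos2 transcription in macrophages were also read: of 26 transcription factors and receptors, 0 passed in limma, with a median log2 fold change of 0.04. Of the 26, 7 stood higher and 2 lower at p under 0.05 before adjustment in limma, and voom called 1 higher. Hif1a, the hypoxia-inducible factor, stood at 106, 115 and 114 TPM in TREM2+ replicates 1, 2 and 3, against 84.2, 69.6 and 65.6 TPM in TREM2- replicates 1, 2 and 3. Its groups did not overlap, but its log2 fold change of 0.61 had an adjusted p of 0.212 in limma. Cebpb, a factor that binds the Arg1 enhancer, was the most abundant of the list, with a log2 fold change of 0.53 and an adjusted p of 0.438 in limma, and Pparg had 0.92 and 0.233.

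Among the genes usually read beside Arg1 and Nos2, members of both lists rose in TREM2+ libraries. Of 11 alternative activation genes 4 passed as higher and 0 as lower in limma, with a median log2 fold change of 0.22. Of the 11, 5 were higher and 1 was lower at an unadjusted p under 0.05 in limma, and voom called 4 higher and 0 lower. The 4 were Mrc1, the mannose receptor, with a log2 fold change of 2.45 and an adjusted p of 0.00502, the chemokine gene Ccl24 with 1.90 and 0.00573, the transglutaminase gene Tgm2 with 1.52 and 0.0108, and Pdcd1lg2, the checkpoint ligand PD-L2, with 1.38 and 0.0309. Chil3, the most abundant of that list, ranged from 1946 to 27674 TPM in TREM2+ libraries and from 8002 to 69640 TPM in TREM2- libraries, and did not pass (log2 fold change -1.33, adjusted p 0.703 in limma). Retnla had a log2 fold change of -0.90 with an adjusted p of 0.476 in limma.

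Of 11 classical activation genes, 3 passed as higher and 0 as lower in limma, with a median log2 fold change of 0.87. Of these, 7 stood higher and 0 lower at p under 0.05 before adjustment in limma, and voom called 5 higher. The 3 were the chemokine gene Cxcl9 with a log2 fold change of 1.82 and an adjusted p of 0.0194, Il1b with 1.53 and 0.0183, and Tnf with 1.43 and 0.0454. Ptgs2, the inducible cyclooxygenase, had 1.5 and an adjusted p of 0.0506 in limma. Cxcl9 passed in 4 of the 6 leave-one-out fits, Il1b in 3, Tnf in 2 and Pdcd1lg2 in 1, while Mrc1, Ccl24 and Tgm2 passed in all 6.

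Markers of other cells were read beside these results, since Arg1 is also a hepatocyte transcript and Nos3 an endothelial one. Of 14 hepatocyte markers tested, 1 passed as higher and 0 as lower in limma, with a median log2 fold change of -0.02. At an unadjusted p under 0.05, 1 was higher and 2 were lower, and voom called 1 in each direction. The gene that passed was Trf, encoding transferrin, which passed in 0 of the 6 leave-one-out fits. The summed level of the 15 markers was 1862 to 2707 TPM in TREM2+ libraries and 2281 to 2962 TPM in TREM2- libraries. None of the 15 was at 0 in any library. Hp and Trf were the largest parts of that sum and went in opposite directions. Hp averaged 903 TPM in TREM2+ libraries and 1784 TPM in TREM2- libraries, and Trf 1122 TPM and 516 TPM. Alb, encoding albumin, stood at 74.4, 21.5 and 22.7 TPM in TREM2+ replicates 1, 2 and 3, against 104, 12.3 and 11.9 TPM in TREM2- replicates 1, 2 and 3. Alb and Cps1 were highest in TREM2- replicate 1, the library in which Arg1 was lowest. Among the TREM2- libraries Ass1 was highest there too. Among the TREM2+ libraries, Alb and Arg1 were both highest in replicate 1. In replicates 2 and 3 Alb was higher in the TREM2+ library than in the TREM2- library, as Arg1 was. The hepatocyte urea cycle enzyme Cps1 did not exceed 0.828 TPM in any library, against 346 TPM or more of Arg1. The part of hepatocytes in the level of Arg1 was not tested.

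Of 9 sinusoidal endothelial markers tested, 7 passed as higher and 0 as lower in limma, and all 9 had no overlap of the groups. Their summed level was 230 to 318 TPM in TREM2+ libraries and 25.0 to 51.1 TPM in TREM2- libraries, and none was at 0 in any library. In limma 9 stood higher and 0 lower at p under 0.05 before adjustment, and voom called 8 higher. They moved in the same direction as Arg1, Nos2, Slc7a2 and Gatm, and their part in those results was not tested. Of 10 macrophage markers 1, the complement gene C1qa, passed as higher and 0 as lower in limma, where the unadjusted p under 0.05 gave 4 and 1 and voom gave 3 and 1. All 10 were present in every library. Their summed levels were 43081 to 56598 TPM in TREM2+ libraries and 64861 to 82225 TPM in TREM2- libraries, and Lyz2 held the most. Lyz2 averaged 31826 TPM in TREM2+ libraries and 64190 TPM in TREM2- libraries, with a log2 fold change of -1.015 (adjusted p 0.115 in limma). The other 9 had positive log2 fold changes, where 5382 of the 13788 genes tested did. The median over the 10 was 0.58. Of 11 neutrophil markers 0 passed as higher and 1, Camp, as lower in limma. At an unadjusted p under 0.05 they numbered 2 and 4 in limma, and with voom 0 and 3. Their summed levels were 16416 to 20567 TPM in TREM2+ libraries and 20478 to 23683 TPM in TREM2- libraries. The list was split: 6 log2 fold changes were positive and 5 negative, with a median of 0.09. All TREM2+ libraries lay above all TREM2- libraries for S100a9 and Cxcr2 (9.07% of all genes). They lay below for Camp, Ngp and Ltf (7.62% of all genes). Of 6 basophil and mast cell markers 0 passed as higher and 3 as lower in limma (0 and 5 at an unadjusted p under 0.05, 0 and 2 with voom), with summed levels of 17.0 to 26.7 TPM in TREM2+ libraries and 117 to 214 TPM in TREM2- libraries. Of 10 T and NK cell, 6 B and plasma cell, 2 stellate and 5 group 2 innate lymphoid cell markers tested, 0 passed in limma. At an unadjusted p under 0.05, 1, 0, 0 and 0 of these were higher and 3, 0, 0 and 1 lower, and voom called 0. The summed level of the T and NK cell markers was 981 to 1222 TPM in TREM2+ libraries and 1571 to 3906 TPM in TREM2- libraries. That of the B and plasma cell markers was 204 to 263 TPM in TREM2+ libraries and 135 to 704 TPM in TREM2- libraries. The stellate list summed to 12.4 to 16.1 TPM in TREM2+ libraries and 12.7 to 28.8 TPM in TREM2- libraries, and the innate lymphoid list to 12.7 to 14.8 TPM in TREM2+ libraries and 13.9 to 54.4 TPM in TREM2- libraries. Il5 and Il13, the defining cytokines of group 2 innate lymphoid cells, were listed at 0 in 5 and 2 of the 6 libraries. The part of these cells in the levels of the 10 genes was not tested.

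The genes whose levels followed Arg1 most closely over the 6 libraries were found by the root mean square difference of log2(TPM + 1), each gene centred on its own mean, among 5860 genes with a mean of at least 10 TPM. They were Vsig4 at 0.30, Fcna at 0.30, Gpr182 at 0.31, Plpp3 at 0.35 and Aqp1 at 0.36. The genes closest to Nos2 were Cxcl3 at 0.19, Cxcl2 at 0.37, AA467197 at 0.37, Hcar2 at 0.40 and Iigp1 at 0.40. Of the 10 arginine genes, Slc7a1, Slc7a2 and Ass1 lay under that mean and were not compared. Among the other 7 the gene nearest to Arg1 was Nos2 and the gene nearest to Nos2 was Arg1. Nos2 ranked 18th among the genes nearest to Arg1, and Arg1 ranked 18th among those nearest to Nos2, at 0.52. This distance depends largely on the size of the difference between the groups, and only Arg1 and Nos2 of the 7 passed the test. Their nearness therefore does not show that they vary together beyond that difference. Gpr182 is also on the list of sinusoidal endothelial markers, and all 6 libraries are shared by every comparison, so these are descriptions of likeness in level.

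**Figure D4:**
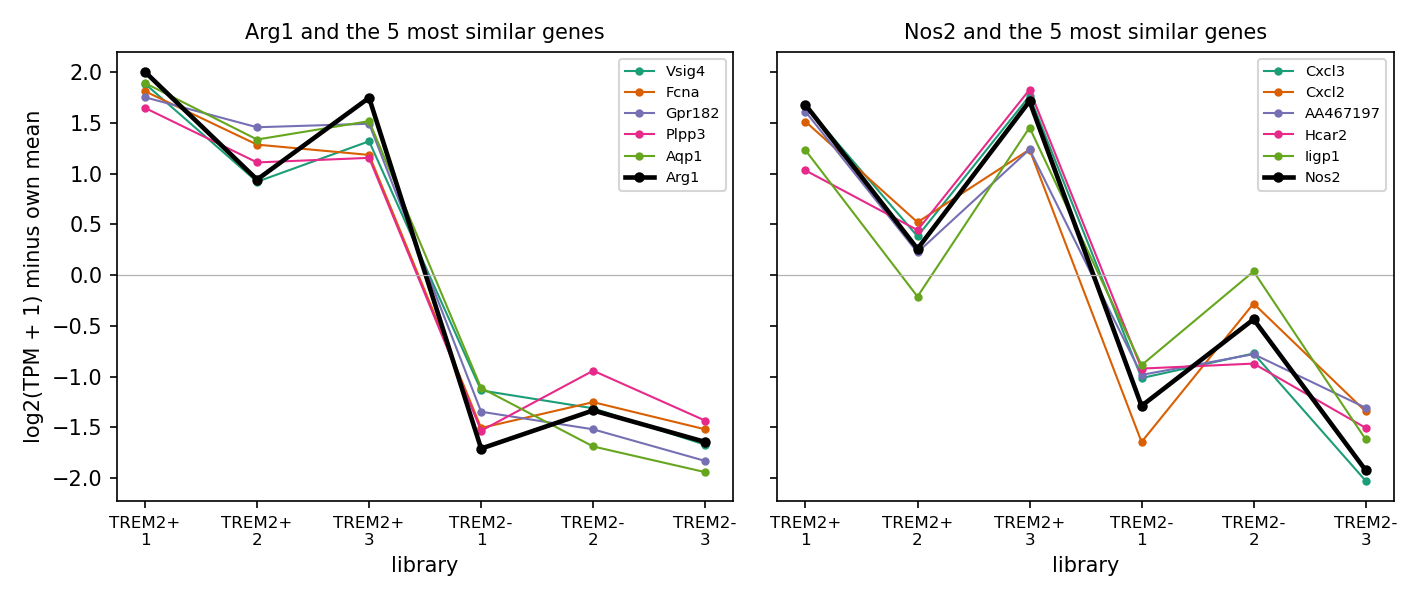
Log2(TPM + 1) of Arg1, Nos2 and the 5 genes closest to each, centred on the mean over the 6 libraries, with TREM2+ libraries left of TREM2- libraries. Cxcl3 shares with Nos2 the low TREM2+ replicate 2 and the high TREM2- replicate 2.

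The 3 genes that rose held to different degrees when 1 library was left out. Arg1 and Slc7a2 passed in all 6 such fits in limma, with log2 fold changes of 2.91 to 3.44 and of 1.59 to 1.68. Nos2 passed in 3 of the 6, with 2.08 to 2.91. Leaving out both libraries numbered 3, which held the most Gm10800, gave log2 fold changes of 2.99 for Arg1, 1.69 for Slc7a2 and 1.83 for Nos2 with adjusted p of 0.145, 0.165 and 0.451 in limma, and no gene of the table passed in that fit. In it 636 genes were higher and 444 lower before adjustment, at p under 0.05.

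**Figure D5:**
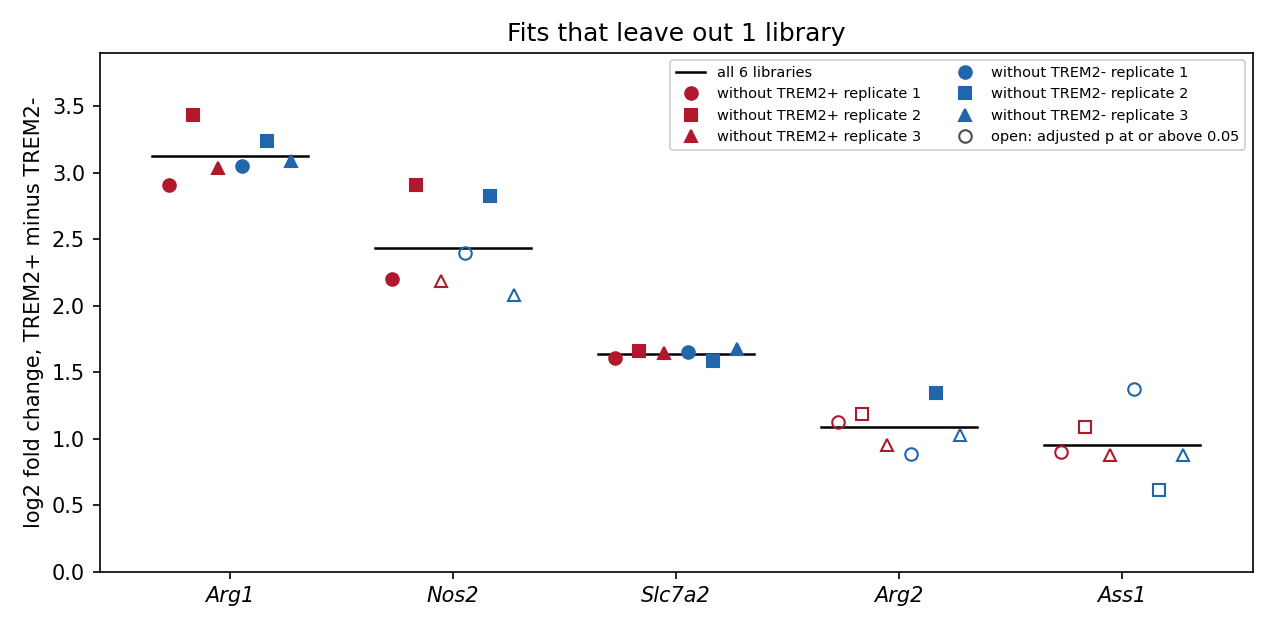
Log2 fold change of Arg1, Nos2, Slc7a2, Arg2 and Ass1, TREM2+ over TREM2-. Values are from the fit of all 6 libraries and from the 6 fits that leave out 1 library. Arg1, Nos2, Slc7a2, Arg2 and Ass1 stay above 0 in each.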

How the data were processed

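Polyadenylated RNA of 3 TREM2+ and 3 TREM2- samples was sequenced with paired ends, per the labels' protocols. Per the submitters' processing notes, the tools were STAR 2.7.10a, Subread and featureCounts 2.0.3, and the build was mm10. No source used here gives the annotation, the strand setting or the formula behind the values. The deposited values form a length-scaled signal: the table is named as TPM, but the authors' 6 columns together, not each, sum to 1000000. Each column was therefore rescaled here to 1000000, called TPM from here on.

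Genes with at least 1 TPM in 3 libraries were fitted on log2(TPM + 1) in limma 3.58.1 (R 4.3.3), with a trend of the variance on the mean. Tests were two-sided, adjusted by Benjamini-Hochberg over all 13788 genes, with a threshold of 0.05. That scale understates the change of low genes. The fit was also run on simulated reads. These had the same dispersion for every gene and none of the composition differences among these libraries. They therefore do not measure the error of the fit here. Reads were recovered as signal times exon length in GENCODE M21: 98.71% of the 36745 non-zero rows matched to the annotation gave whole numbers, to within 0.01 read. For Nos2 an exon length of 4439 bases, solved from the values, was used in place of 4412. Depth limits precision through counting error beside the spread between libraries.

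The 10 genes and all lists were chosen with earlier results of these data known. Named are all 10 genes and, of each list, up to 4 genes with the smallest p and the most abundant. The text names only part of these. Nos1, Nos3, Cps1, Nags, Retnla, Alb, Il5 and Il13 fall outside that rule and were named after their values were seen. Whether the replicates are separate animals is not in the labels, and p-values then reflect only how these samples spread, which may be technical. Alternatives covered the pseudocount, filter, scaling, replicate block, library weights, trend, voom, threshold, repeat family and libraries left out. No protein or promoter sequence of the genes that rose was used here.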

Additional observations from a re-analysis of the deposited data

How the results depend on the processing

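Arg1 and Slc7a2 passed in 20 of 21 alternatives in limma, Nos2 in 11, Arg2 in 3 and Ass1 in 1. Of the 21, the threshold of 0.1 is the main fit read again, so a gene called at 0.05 passes it by construction. The exception for Arg1 and Slc7a2 was the fit without both libraries numbered 3, in which 0 of the 10 genes passed and 0 genes of the table were higher and 0 lower (636 and 444 at an unadjusted p under 0.05). Arg2 passed with a filter of 5 TPM (adjusted p 0.0474 in limma), without TREM2- replicate 2 and at a threshold of 0.1, and Ass1 passed with library weights (log2 fold change 1.49, adjusted p 0.0103 in limma). Slc7a1 was not tested with a filter of 5 TPM.

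The difference in the log2 ratio of Slc7a2 to Slc7a1 was 2.10 with a pseudocount of 0.1 and 0.93 with one of 5. Slc7a1 turned in sign to 0.0005976 with median-of-ratios scaling, to 0.14 with library weights, and ranged from -0.16 to 0.061 when 1 library was left out. Srm turned to 0.016 with median-of-ratios scaling and 0.0071 with quantile normalization, and ranged from -0.32 to 0.17 when 1 library was left out.

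Over the whole table, 282 genes were higher and 51 lower. Genes higher numbered 95 with no filter, 976 with library weights, 445 with voom, 425 at a threshold of 0.1, 118 without both libraries numbered 1, an alternative chosen after seeing the data, and 116 to 342 when 1 library was left out. Genes lower numbered 31 with a pseudocount of 0.1, 3 with no filter, 97 with median-of-ratios scaling, 121 with quantile normalization, 93 on the deposited values, 389 with library weights, 173 with voom, 101 without the repeat family, 89 at a threshold of 0.1, 8 without both libraries numbered 1, and 7 to 105 when 1 library was left out. Of all calls 84.7% were higher, against 69.1% on the deposited values, 71.5% with library weights, 72.0% with voom, 73.8% without the repeat family, 92.1% with the replicate block, 93.7% without both libraries numbered 1, 96.9% with no filter, and 72.4% to 97.1% when 1 library was left out. The cause of these shifts was not tested.

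The main fit did not take the replicate numbers to pair the samples. Same-numbered libraries correlated in their deviations from the group means at 0.19, -0.03 and 0.22 for replicates 1, 2 and 3. Pairs with different numbers ran from -0.38 to 0.13, below the same-numbered pairs of replicates 1 and 3. TREM2+ replicate 2 correlated best with TREM2- replicate 3. These values do not settle whether the numbers pair the samples. With the replicate number as a block, 116 genes were higher and 10 lower, Arg1 and Slc7a2 passed, and Nos2 had an adjusted p of 0.157 in limma.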
